A study of Mus musculus with 3 samples.

Results

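The NR4A receptor family loci are 3 stretches of the mouse genome (build mm9) that hold the genes Nr4a1, Nr4a2 and Nr4a3. They were set by position and not by score, as chr15:101020000-101160000 for Nr4a1 (140 kb), chr2:56890000-57050000 for Nr4a2 (160 kb) and chr4:47980000-48150000 for Nr4a3 (170 kb). Earlier results of these data were known when the members were chosen. A peak was a member if its centre lay in one of these windows, and 30 of the 52946 peaks in 3 peak lists did. The samples were RAW264.7 cells, an established mouse macrophage line, stably carrying the construct pINDUCER20b-HA-NUR77, from which doxycycline induces NUR77 fused to an HA tag. All 3 replicates were given doxycycline (1 µg/mL, 18 hours), were grown in 6 dishes each and underwent chromatin immunoprecipitation sequencing (ChIP-seq) with an antibody against the HA tag. Uninduced cells, untagged cells and a control precipitation were not analysed here. No comparison between groups can therefore be made, and the replicates, which the labels do not assign to separate days, are compared with each other and with their own whole lists.

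Nr4a1 encodes NUR77 itself, and Nr4a2 and Nr4a3 encode its paralogs NURR1 and NOR1. The family are orphan nuclear receptors, transcription factors that bind DNA as monomers at the NGFI-B response element (NBRE) or as dimers at related palindromes. They are immediate early genes, switched on within a short time by growth factors, cAMP and, in macrophages, by inflammatory stimuli, in part through cAMP response elements (CRE) in their promoters. A peak of HA-NUR77 at Nr4a1 bears on autoregulation, and peaks at Nr4a2 and Nr4a3 bear on regulation across the family. A peak list places the tagged protein on chromatin and says nothing of the level of the genes' transcripts. The cells also carried extra NUR77 coding sequence in the construct, and a peak list does not separate reads of that sequence from reads of the same exons of Nr4a1. Whether such reads contribute to the peaks of the Nr4a1 window was not tested.

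The promoters of the 3 genes are shown because the family is known to be induced through CREs there. They are the 250 bases before each gene's start, 5′ to 3′ on the gene's strand, from RefSeq (GRCm38.p6). Their positions in that build are chr15:101266596-101266845 (plus strand) for Nr4a1, chr2:57124004-57124253 (minus strand) for Nr4a2 and chr4:48045055-48045304 (plus strand) for Nr4a3. These cannot be set against the mm9 positions of the peaks, and no distance between a peak and a gene start is given. Capitals mark TGACG, the core of a CRE, on either strand.
Nr4a1: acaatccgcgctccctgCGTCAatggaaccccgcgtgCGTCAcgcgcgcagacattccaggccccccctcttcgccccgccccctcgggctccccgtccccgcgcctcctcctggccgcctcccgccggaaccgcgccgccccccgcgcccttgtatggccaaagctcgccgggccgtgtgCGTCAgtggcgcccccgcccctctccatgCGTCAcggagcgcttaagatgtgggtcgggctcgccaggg
Nr4a2: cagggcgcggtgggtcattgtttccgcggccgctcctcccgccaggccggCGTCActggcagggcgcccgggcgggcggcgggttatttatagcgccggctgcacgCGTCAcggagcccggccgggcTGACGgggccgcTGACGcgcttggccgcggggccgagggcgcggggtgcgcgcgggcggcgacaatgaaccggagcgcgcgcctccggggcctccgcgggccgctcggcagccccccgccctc
Nr4a3: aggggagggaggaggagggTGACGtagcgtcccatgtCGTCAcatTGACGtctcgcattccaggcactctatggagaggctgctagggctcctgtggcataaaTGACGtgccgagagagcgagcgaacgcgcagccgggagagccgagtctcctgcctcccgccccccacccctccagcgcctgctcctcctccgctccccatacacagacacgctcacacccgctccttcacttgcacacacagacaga

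Each of the 3 promoters held TGACG 4 times. Over all 32851 promoter sequences of the same length, 17.8% held it at least once and 45 (0.137%) held it 4 or more times. The promoters are rich in G and C, at 74.4% for Nr4a1, 80.0% for Nr4a2 and 63.6% for Nr4a3, against a median of 52.4% over all promoters. Among the 6582 promoters with at least 63.6% G and C, 28.0% held TGACG and 25 (0.38%) held it 4 or more times. The copies lay between 233 and 40 bases before the start of Nr4a1, between 200 and 111 before that of Nr4a2 and between 231 and 147 before that of Nr4a3. The full CRE palindrome TGACGTCA, which contains TGACG on both strands, was in none of the 3, and in 1.55% of all promoters. The NBRE, searched as AAAGGTCA on both strands, was also in none of the 3 windows of 250 bases and in 1.34% of all promoters. Its shorter core AGGTCA, which AAAGGTCA contains, was in none of the 3 and in 14.0% of all. A match or its absence describes these letters and not the binding of a factor.

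HA-NUR77 peaks were called in the Nr4a1 and Nr4a2 windows in each of the 3 replicates, and in the Nr4a3 window in replicate 2 alone. The Nr4a1 window held 3, 10 and 3 peaks in replicates 1, 2 and 3, the Nr4a2 window held 2, 5 and 3, and the Nr4a3 window held 0, 4 and 0. In all, 5 of the 6777 peaks of replicate 1, 19 of the 37307 of replicate 2 and 6 of the 8862 of replicate 3 were members, a mean of 10.0 ± 7.81 (SD, n = 3). The larger number in replicate 2 goes with its longer list. The lists give no read counts, so the depth of each sample is unknown, and a window without a peak is not shown to be unbound.

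Overlapping peaks of the 3 lists, by at least 1 bp, were joined into regions, lettered here from the lower coordinate in each window. The 30 peaks formed 19 regions, of which 6 (31.6%, 95% Wilson interval 15.4 to 54.0) held peaks of at least 2 replicates, against 25.4% of the 38463 regions of the whole lists. All 3 replicates were present in 4 of the 19, against 12.3% of the whole. Of the other 13, replicate 2 held 12 by itself and replicate 3 held 1, while every replicate 1 peak overlapped a peak of another list. Of the 38463 regions of the whole lists, replicate 2 held 27717 by itself, replicate 3 held 606 and replicate 1 held 385. Over its whole list, 94.3% of replicate 1 peaks overlapped a peak of another list. With so few members, these shares and those of the whole lists are not resolved from each other. The intervals cover counting error only.

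**Figure D1:**
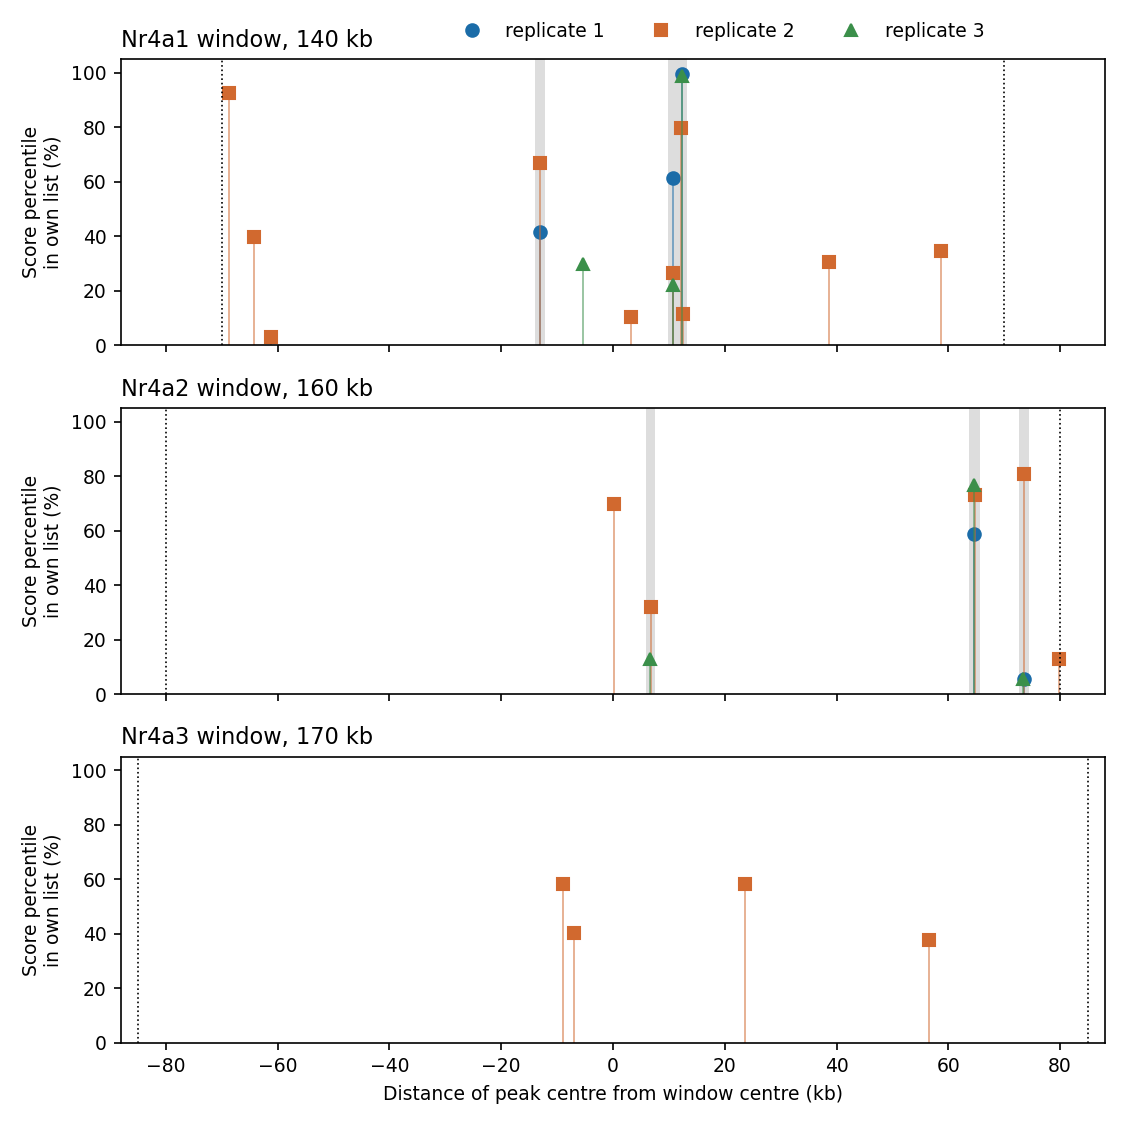
Position of every member peak, as distance of its centre from the window's centre (kb), against the percent of its own list that scored lower (score percentile). Dotted lines are window borders and grey bands mark regions with peaks of at least 2 replicates. Such regions lie in the Nr4a1 and Nr4a2 windows, and the 4 peaks of the Nr4a3 window are all of replicate 2.

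At Nr4a1, the gene of NUR77 itself, the leading region was Nr4a1-H at chr15:101102036-101102676 (641 bp), which held peaks of all 3 replicates. Its peak scored 546.981 in replicate 1, which is rank 21 of 6777, and 425.408 in replicate 3, which is rank 108 of 8862. In replicate 2 its higher peak scored 198.805, rank 7588 of 37307. The score percentile, which is the percent of a list that scored lower, was 99.7, 79.7 and 98.8 in replicates 1, 2 and 3. The region was thus near the top of the lists of replicates 1 and 3 and lower in that of replicate 2. Over the 4723 regions of all 3 replicates the median percentiles were 60.1, 91.3 and 66.0. Nr4a1-H thus stood below the median of such regions in replicate 2 and above it in replicates 1 and 3. As for size alone, 69.1% of the 4723 regions of all 3 replicates had a range between lists of at least its 20.0 points (median 33.0 points). The range takes no account of direction. Replicate 2 was the lowest list at Nr4a1-H, while its median over such regions is the highest of the 3 lists.

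In replicate 2 the same region carried a pair of peaks where the other lists had 1. The peaks at chr15:101102036-101102377 (342 bp) and chr15:101102514-101102635 (122 bp, score 30.603) were separated by a gap of 136 bp. Together with the gap they spanned 600 bp, a multiple of the 50 bp step in which peak widths are given, while neither peak's own width was. They were the 2 members of 30 whose width was off that step, against 3.50% of the peaks of replicate 2, 0.679% of replicate 1 and 0.350% of replicate 3. Only 2 of the 6221 replicate 1 peaks that overlapped replicate 2 overlapped more than 1 of its peaks (0.0321%), and 4 of 8085 did so in replicate 3. Replicate 2 held 21 such pairs, off the step singly and on it jointly and less than 1000 bp apart, and replicates 1 and 3 held 0. These pairs make up a small part of the 1305 replicate 2 peaks off the step. Peaks of replicates 1 and 3 ran through the gap, chr15:101102378-101102513, without a break, and the cause of the gap was not tested.

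**Figure D2:**
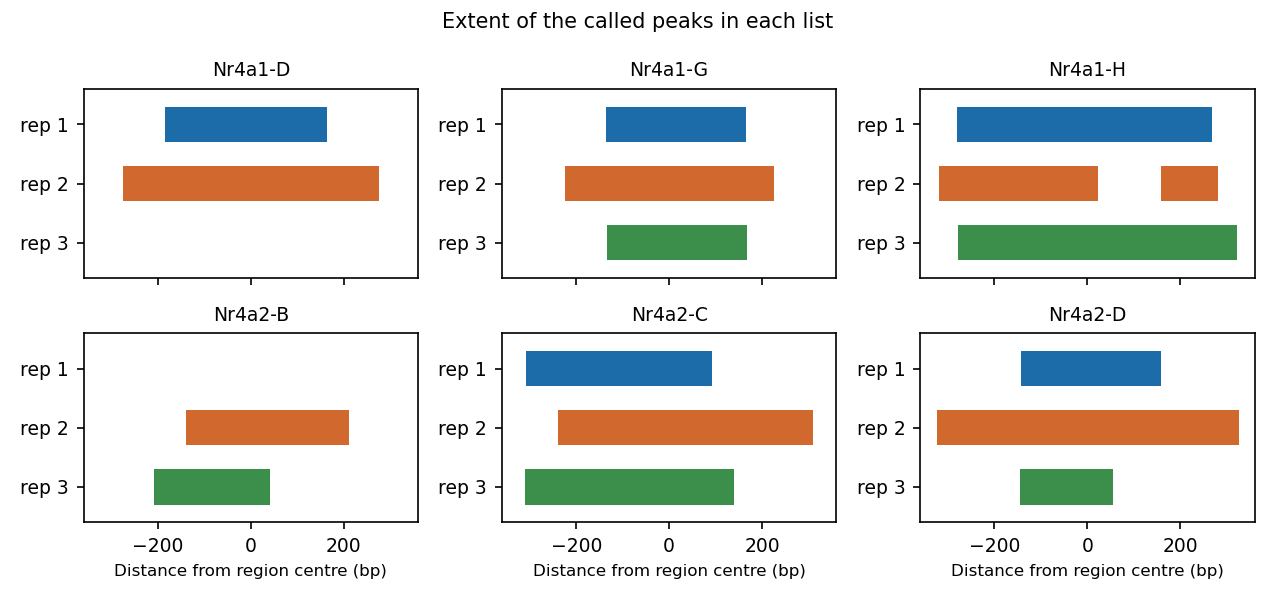
Extent of the called peaks in each list at the 6 regions with peaks of at least 2 replicates, as distance from the region's centre (bp), with 1 bar per peak. Replicate 2 has a gap of 136 bp in Nr4a1-H, where replicates 1 and 3 have 1 unbroken peak each.

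Close beside it, with its centre 1.65 kb lower, lay Nr4a1-G at chr15:101100486-101100935 (450 bp), also with peaks of all 3 replicates. Its scores were 54.865 in replicate 1, 44.32 in replicate 2 and 31.716 in replicate 3. These are percentiles of 61.4, 26.6 and 22.2, a place in the lower part of the lists of replicates 2 and 3. The centres of its 3 peaks lay within 16 bp of each other. The 2 regions make up the part of the Nr4a1 window where all lists had peaks.

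A region of replicates 1 and 2, Nr4a1-D at chr15:101076636-101077185 (550 bp), lay 23.8 kb below Nr4a1-G. It scored 39.716 in replicate 1 (percentile 41.7) and 126.335 in replicate 2 (percentile 67.1), with centres 11 bp apart. No replicate 3 peak overlapped it. The peak of replicate 3 alone, at chr15:101084427-101084676, scored 35.869 (percentile 30.0), close to the median of 30.1 for the 606 peaks that replicate 3 shared with no other list. The replicate 1 and replicate 3 peaks thus differed at these positions, both at percentiles below 50.

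The highest replicate 2 score in the Nr4a1 window was not in any of these regions. It belonged to Nr4a1-A at chr15:101020986-101021535, with a score of 428.306, rank 2732 and percentile 92.7, and its centre lay 1.26 kb inside the lower border of the window. Neither replicate 1 nor replicate 3 had a peak there. Of the 27717 peaks of replicate 2 that overlapped no other list, 0.956% scored as high or higher. The other 5 regions of replicate 2 alone in this window had scores between 23.98 and 59.977. Its score cannot be compared with the similar 425.408 of Nr4a1-H in replicate 3, which comes from another list.

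At Nr4a2, which encodes NURR1, all 3 replicates had peaks in the regions Nr4a2-C and Nr4a2-D, whose centres were 8.79 kb apart. Nr4a2-C at chr2:57034397-57035016 (620 bp) scored 52.265, 154.126 and 93.649 in replicates 1, 2 and 3, which are ranks 2792, 9999 and 2062. Its percentiles of 58.8, 73.2 and 76.7 had a range of 17.9 points, the smallest of the 4 such regions at these loci, and 72.2% of the 4723 regions of all 3 replicates had a range at least as large. The medians over those regions were 60.1, 91.3 and 66.0, so Nr4a2-C stood below the median in replicate 2, close to it in replicate 1 and above it in replicate 3.

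Nr4a2-D at chr2:57043167-57043816 (650 bp) had the least even ranks. It scored 209.436 in replicate 2, the highest there in this window (rank 7143, percentile 80.9), but 24.29 in replicate 1 and 24.335 in replicate 3 (percentiles 5.62 and 5.44). The lowest scores of the whole lists of replicates 1 and 3 were 22.581 and 22.194, so the region stood near the lower end of both. Its range of 75.4 points was reached by 4.68% of the 4723 regions of all 3 replicates. The 3 peaks still shared a stretch of 198 bp, with centres within 52 bp.

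The third region, Nr4a2-B at chr2:56976547-56976966 (420 bp), held peaks of replicates 2 and 3 and lay 58.0 kb below Nr4a2-C. It scored 50.302 in replicate 2 (percentile 32.1) and 27.347 in replicate 3 (percentile 12.7), with centres 120 bp apart. Replicate 2 alone had the remaining regions, Nr4a2-A at chr2:56970017-56970416 (score 136.456, percentile 69.6) and Nr4a2-E at chr2:57049617-57050116 (score 31.766, percentile 13.0). The centre of Nr4a2-E lay 0.134 kb inside the upper border of the window, and the next replicate 2 peak beyond that border was 35.1 kb away with a score of 30.204. The next region of at least 2 replicates beyond it, at chr2:57090597-57091066, held replicates 2 and 3 and lay 40.8 kb outside. In the other direction the next such region was 3187 kb away.

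At Nr4a3, which encodes NOR1, no region was seen in more than 1 replicate. The 4 peaks of replicate 2 lay at chr4:48055876-48056425, chr4:48057726-48058225, chr4:48088276-48088825 and chr4:48121376-48121875. They scored 98.053, 60.825, 97.542 and 57.756, between percentiles 37.9 and 58.4, so they were mid-list peaks. The median of all replicate 2 peaks without overlap in another list was percentile 38.8. The nearest region of at least 2 replicates was at chr4:48255276-48255975, held all 3 replicates and lay 106 kb beyond the upper border. Of 15605 stretches of 170 kb that tile the genome, 71.1% held no region of at least 2 replicates, so a window without one is the common case.

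**Figure D3:**
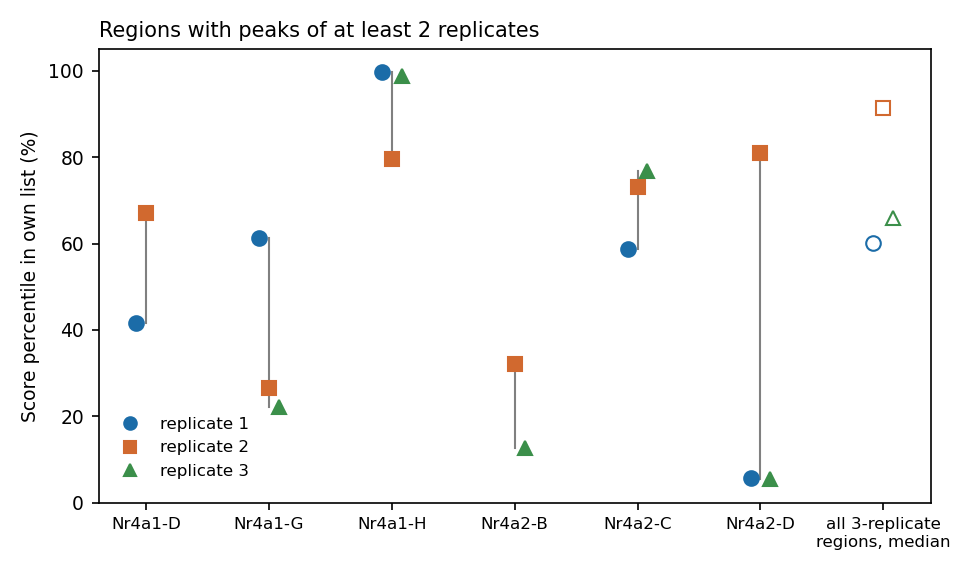
Score percentile in its own list of the highest peak of each replicate at the 6 regions with peaks of at least 2 replicates. Grey lines span the replicates, and the open symbols at the right are the medians over all 4723 regions with peaks of all 3 replicates (60.1, 91.3 and 66.0). Nr4a1-H is highest in replicates 1 and 3, and Nr4a2-D spans 75.4 points.

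Over the 3 loci together, the share of members at the top of the lists was not resolved from that of the whole lists. The best-scored 10% of each list held 1 of 5 members in replicate 1, 1 of 19 in replicate 2 and 1 of 6 in replicate 3, against 9.99%, 10.0% and 10.0% of the whole lists. In replicates 1 and 3 that member was the peak of Nr4a1-H, and in replicate 2 it was Nr4a1-A. The median percentile of members was 58.8, 39.6 and 26.1 in replicates 1, 2 and 3, a mean of 41.5 ± 16.5 (SD, n = 3), where the median of a whole list is 50 by definition. By the mean of the 3 percentiles, 12.4% of the 4723 regions of all 3 replicates stood at or above Nr4a1-H, 51.3% at or above Nr4a2-C, 93.6% at or above Nr4a1-G and 97.1% at or above Nr4a2-D.

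Most member peaks of replicates 1 and 3 were found in another list. Overlap with at least 1 other list was seen for 5 of 5 members in replicate 1, 7 of 19 in replicate 2 and 5 of 6 in replicate 3, against 94.3%, 25.7% and 93.2% of the whole lists. Overlap with both other lists was seen for 4 of 5, 5 of 19 and 4 of 6, against 69.1%, 12.7% and 52.8%. The Wilson interval of the replicate 2 share with both lists, 26.3%, was 11.8 to 48.8, and includes the 12.7% of its whole list. Sharing at the NR4A loci was thus not resolved from that of the lists as a whole. The 5 replicate 2 peaks include both pieces of Nr4a1-H, so members share a region.

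The Nr4a1 and Nr4a2 windows had more peaks per Mb than the whole lists in each replicate, a description with no test. In the Nr4a1 window, replicates 1, 2 and 3 had 21.4, 71.4 and 21.4 peaks per Mb, against 2.55, 14.1 and 3.34 over the whole lists. That is 8.40, 5.08 and 6.42 times as many, a mean of 6.63 ± 1.67 (SD, n = 3). The Nr4a2 window had 12.5, 31.2 and 18.8 per Mb, or 4.90, 2.22 and 5.62 times as many (mean 4.25 ± 1.79). The Nr4a3 window had 0, 23.5 and 0 per Mb, or 0, 1.67 and 0 times. In replicate 2, 3.08% of stretches of 140 kb that tile the genome held at least the 10 peaks of the Nr4a1 window. At least the 5 of the Nr4a2 window were in 19.8% of stretches of 160 kb. At least the 4 of the Nr4a3 window were in 26.7% of stretches of 170 kb. For the 3 windows together the ratio was 4.17, 2.88 and 3.82, a mean of 3.62 ± 0.669 (SD, n = 3), above 1 in 3 of 3 replicates. The windows were placed on genes, while the whole genome includes long stretches with few genes, and how far gene density goes with these ratios was not tested.

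**Figure D4:**
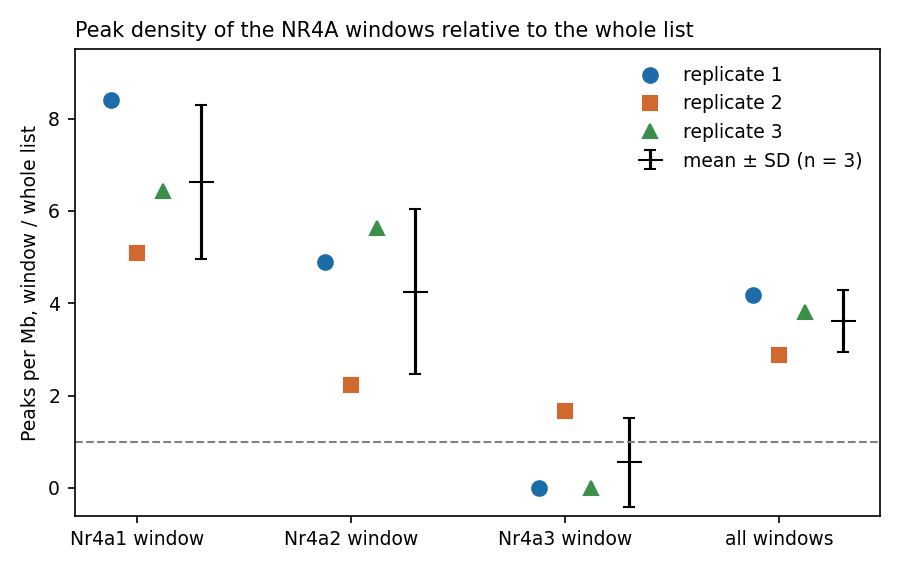
Peaks per Mb in each window divided by peaks per Mb of the same whole list, by replicate, with the mean and SD of the 3 replicates beside them. The dashed line at 1 is the density of the whole list. The Nr4a1 and Nr4a2 windows lie above it in all 3 replicates, and the Nr4a3 window in replicate 2 alone.

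The flanks of the windows were sparser than the windows in the Nr4a1 and Nr4a2 loci. The 21.4, 71.4 and 21.4 peaks per Mb inside the Nr4a1 window in replicates 1, 2 and 3 stood against 2.0, 21.0 and 4.5 in 1 Mb on each side of it. The 12.5, 31.2 and 18.8 inside the Nr4a2 window stood against 2.5, 8.5 and 2.5 around it. The Nr4a3 window, with 0, 23.5 and 0 inside, stood against 2.5, 14.5 and 5.5 around it, so its flanks had peaks of all 3 replicates. The nearest regions of at least 2 replicates outside the Nr4a1 window lay 446 kb below and 270 kb above it. The Nr4a1 window held 3 regions of at least 2 replicates, and 6.45% of the 18954 stretches of 140 kb that tile the genome held as many or more. The Nr4a2 window also held 3, as many as or fewer than 7.60% of 16582 stretches of 160 kb.

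The density ratio of replicate 2 varied with how much of its list was kept. It was 2.88 over the whole list and 2.42 over the higher-scored 50%. Of its 6777 best-scored peaks, as many as replicate 1 has, 1 was a member (Nr4a1-A), a density of 0.834 times that of this shortened list. The ratio of replicate 3, cut to the same number of peaks, was 2.5. The regions of all 3 replicates then numbered 0. The replicate 2 peaks of Nr4a1-G, Nr4a1-H, Nr4a2-C and Nr4a2-D all fell below the limit of 219.594. The best of them scored 44.32, 198.805, 154.126 and 209.436 in that order.

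The authors' deposited table of intervals covered by at least 2 replicates held 9 intervals in the Nr4a1 window (1213 bp), 7 in the Nr4a2 window (930 bp) and 0 in the Nr4a3 window. They lie in the same 6 regions. The replicate names given there matched the lists for 10 of these 16 intervals as written and for 16 of 16 once replicates 2 and 3 were exchanged. Read as written, the table would place Nr4a1-D in replicates 1 and 3, where the lists have it in replicates 1 and 2. Peak numbers were consecutive in the windows in replicates 1 and 3, while 6 numbers between the first and last member of a window were absent from the list of replicate 2, 4 of them at Nr4a1 and 2 at Nr4a2. Over the whole lists, 19.7% of the numbers up to the highest were missing in replicate 2, and 39.1% and 38.8% in replicates 1 and 3.

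In RefSeq the nearest protein-coding neighbours, leaving out entries with a provisional LOC symbol, of Nr4a1 are Grasp and Atg101, those of Nr4a2 are Kcnj3 and Gm52512, and those of Nr4a3 are Sec61b and Stx17. The windows are wider than the genes, and an mm9 annotation was not used here, so a peak in a window is not assigned to the NR4A gene, to its exons or introns, or to a neighbour.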

How the data were processed

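Peaks were taken from the 3 per-replicate lists as deposited, with a position and a score per peak. Per the submitters' processing notes the coordinates are of mm9. Peak names have the form MACS gives. Aligner, caller settings and the scale of the score were not given in the sources used here. Scores therefore served only to order peaks inside a list, with ties averaged. The design text names input reads of other studies as controls, which were not analysed here. Positions are 1-based. Peaks were shared at an overlap of at least 1 bp. Densities used mm9 chromosome lengths of GenomeInfoDb 1.38.1. Shares carry 95% Wilson intervals. With 1 group no test between groups was run. Named were all 3 genes, each region of at least 2 replicates, and the best-scored peak of each list per window. The members, motifs and alternatives were chosen with earlier results of these data known. A planned comparison of the 3 proteins was not run. The joining of peaks was tested on simulated lists. Tools were Python 3.11.15 with pandas 2.3.3, numpy 2.4.6, matplotlib 3.10.9 and scipy 1.17.1.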

Additional observations from a re-analysis of the deposited data

How the results depend on the processing

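Counting peaks that touch a window, instead of those centred in it, changed none of the 6 summary results. With only the upper 50% of each list by score there were 4.33 member peaks per list on average, 2 regions of at least 2 replicates and 2 of all 3, since the lists are shorter. An equal number of best-scored peaks from each list gave a mean of 3.0 member peaks, 2 regions of at least 2 replicates, 0 of all 3, a shared share of 35.6% against 73.4% over all peaks, a relative density of 2.50 and a median percentile of 62.7. With a reciprocal overlap of 50%, there were 6 regions of at least 2 replicates, 3 of all 3 and a shared share of 69.9%. With centres within 100 bp, there were 5 regions of at least 2 replicates (2 of them at Nr4a2), 2 of all 3 and a shared share of 60.8%. Both rules are stricter by construction. Leaving out each replicate gave means of 5.5 to 12.5 member peaks (lowest without replicate 2), 4 to 5 regions common to the replicates left, shared shares of 57.5% to 73.3%, relative densities of 3.35 to 4.0 and median percentiles of 32.8 to 49.2. Relative to the numbered chromosomes, the same chromosome or 1 Mb on each side, the density was 3.48, 3.44 and 3.46. The Nr4a3 window had 0 regions of at least 2 replicates in each of these runs that rebuilt regions. As only replicate 2 had peaks there, the runs could give no other count, so this 0 is no sign of stability. Without a replicate no region of all 3 can be counted. No paired analysis was possible because the 3 samples form 1 group.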
